A study of Mus musculus with 4 samples.

Results

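Kv1 potassium channels and their beta subunits were examined as 9 genes, 6 coding for pore-forming alpha subunits (Kcna1 to Kcna6) and 3 for cytoplasmic beta subunits (Kcnab1, Kcnab2 and Kcnab3). They were taken by gene symbol, and all 9 were found among the 31735 gene rows shared by 4 libraries. The libraries hold ribosome-bound RNA from the rostral pons of adult Cbln2-TRAP NIDA172 mice (Cbln2-EGFP/Rpl10a), in which EGFP is fused to the ribosomal protein L10a. The mice were untreated controls, all 4 libraries were immunopurified (IP) with antibodies against EGFP, and they form 1 group, replicates 1 to 4. Unbound or total RNA was not analysed here, so a level describes the purified RNA and not its enrichment. Whether a replicate is 1 animal, a pool or a repeat preparation is not stated in the labels, so a p-value speaks only of library-to-library spread, part of which may be technical. In such bulk samples fewer cells of a type and less RNA per cell cannot be told apart.

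Kv1 channels open at modest depolarization and hold down the excitability of axons, axon initial segments and nerve terminals. Alpha subunits assemble as tetramers, often of different members, and beta subunits bind beneath the pore and affect trafficking and inactivation. On myelinated axons the channels gather beside the nodes of Ranvier, where the adhesion protein Caspr2 (Cntnap2) and contactin 2 (Cntn2) hold them. In brainstem neurons Kv1 current limits repetitive firing, and in people mutations of KCNA1 cause episodic ataxia.

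The alpha genes share their pore, and the counts can tell them apart only through reads that differ. The 60 coding bases around the selectivity filter are shown for this reason, read 5′ to 3′ on the coding strand from GENCODE M21 transcripts (GRCm38). Capitals mark the 9 bases that code for glycine, tyrosine and glycine, the signature of potassium channels.
Kcna1 (chr6:126642210-126642269, minus strand): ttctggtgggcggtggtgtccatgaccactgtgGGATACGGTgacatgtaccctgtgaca
Kcna2 (chr3:107105197-107105256, plus strand): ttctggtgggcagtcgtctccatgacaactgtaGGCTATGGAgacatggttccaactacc
Kcna3 (chr3:107037584-107037643, plus strand): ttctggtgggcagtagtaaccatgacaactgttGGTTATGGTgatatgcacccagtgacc
Kcna4 (chr2:107296468-107296527, plus strand): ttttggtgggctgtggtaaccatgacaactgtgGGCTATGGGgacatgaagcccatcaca
Kcna5 (chr6:126533727-126533786, minus strand): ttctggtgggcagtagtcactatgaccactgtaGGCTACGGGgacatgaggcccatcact
Kcna6 (chr6:126738629-126738688, minus strand): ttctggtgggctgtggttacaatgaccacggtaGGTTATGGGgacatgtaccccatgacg
Of the 60 bases, 39 were the same in all 6 genes, and the capital bases had 6 different spellings. Kcna1 and Kcna2 differed at 16 of the 60 bases, Kcna4 and Kcna5 at 10.

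Over whole coding sequences, the longest identical run between members was 17 to 31 bases for every pair of alpha genes except 1. Kcna5 and Kcna6, which flank Kcna1 on chromosome 6, share a run of 91 bases, shown in capitals with 12 bases on each side.
Kcna6 (chr6:126738840-126738954, minus strand): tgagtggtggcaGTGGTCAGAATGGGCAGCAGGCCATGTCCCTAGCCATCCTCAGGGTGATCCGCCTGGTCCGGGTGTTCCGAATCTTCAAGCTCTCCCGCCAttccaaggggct
Kcna5 (chr6:126533938-126534052, minus strand): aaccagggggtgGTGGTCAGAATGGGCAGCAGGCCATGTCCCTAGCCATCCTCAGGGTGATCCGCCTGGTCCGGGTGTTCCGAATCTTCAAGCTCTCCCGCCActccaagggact
The run lies in the part of the coding sequence for the voltage-sensing segment and makes up 5.73% of the coding bases of Kcna6 and 5.04% of those of Kcna5. Reads wholly inside it cannot be assigned to either gene, so the counts of both genes are uncertain by such reads. Of annotated exon, the run is 91 of 2862 bases for Kcna5 and 91 of 5945 for Kcna6. The beta genes shared runs of 14 to 26 bases at most.

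The 4 libraries held 12731825 to 21140265 counts over gene rows, and levels are given as CPM, counts of a gene per 1000000 such counts. The descriptions number the libraries 2469 and 2470 (replicates 3 and 4, called the second pair) and 1666 and 1667 (replicates 1 and 2, the first pair). No label gives a batch, so the pairing rests on these numbers alone, and the description of replicate 4 ends with the label of replicate 3. The ribosomal RNA row Rn45s took 24.2% and 9.29% of the counts in the second pair, against 1.68% and 1.61% in the first, which lowers every CPM of replicate 3 the most. General neuronal genes (Rbfox3, Snap25, Syn1, Map2 and Nefl) were abundant. These 5 markers summed to 10509 and 10772 CPM in the second pair and 22256 and 20171 CPM in the first. Snap25 made up most of each sum, with 8131 and 6936 CPM in the second pair and 18577 and 15908 CPM in the first. Of the 5, only Map2 had a higher mean in the second pair, 975 against 796 CPM. Glial genes were present too, with 7 oligodendrocyte markers summing to 414 and 2390 CPM in the second pair and 1426 and 1730 CPM in the first, and 6 astrocyte markers to 253 and 1575 CPM in the second pair and 864 and 1040 CPM in the first. Both sums were lowest in replicate 3 and highest in replicate 4. The 4 endothelial markers summed to 73.4 and 24.9 CPM in the second pair and 69.4 and 110 CPM in the first.

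All 9 genes reached 1 CPM in all 4 libraries, as did 33.5% of all shared gene rows. For comparisons between genes, each CPM value was taken per kilobase of the gene's merged annotated exons. On that scale, as log2(CPM per kb + 0.5), the median of the 9 genes was 3.41 and 3.84 in replicates 3 and 4 and 3.30 and 3.95 in replicates 1 and 2. The median over the 10131 genes that reached 1 CPM throughout was 2.64 and 2.86 in the second pair and 2.76 and 2.74 in the first. The 9 genes spread widely around their median, from levels among the highest of the channel genes to a few CPM.

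Kcna2 and Kcna1 were the most abundant members on average. Kcna2 (ENSMUSG00000040724.5, chromosome 3, 107101146 to 107115005, plus strand) encodes Kv1.2, a main subunit of axonal channels. It was at 365 and 986 CPM in replicates 3 and 4 and at 1062 and 1308 CPM in replicates 1 and 2, a mean of 930 ± 401 CPM (SD, n = 4). Replicate 3 stood below the other 3 libraries, which lay within 1.5 times of each other. With Rn45s left out of the totals, replicate 3 was at 481 CPM and still the lowest, beside 1087 CPM in replicate 4 and 1080 and 1329 CPM in replicates 1 and 2.

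Kcna1 (ENSMUSG00000047976.4, chromosome 6, 126640397 to 126646384, minus strand) encodes Kv1.1, the partner of Kv1.2 in many axonal channels. It was at 185 and 589 CPM in replicates 3 and 4 and at 322 and 446 CPM in replicates 1 and 2 (mean 386 ± 172, SD, n = 4). The highest and the lowest value both came from the second pair, and the pairs overlapped. Replicates 3 and 4 were also the extremes for the oligodendrocyte and astrocyte marker sums, whose part in the level of Kcna1 was not tested.

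Which of Kcna1 and Kcna2 was higher depended on the length used. Kcna2 has 11906 bases of annotated exon and Kcna1 has 4780. Per kb the log2 ratio of Kcna2 to Kcna1 was -0.34 and -0.57 in the second pair and 0.41 and 0.24 in the first. Without division by length it was above 0 in 4 of 4 libraries, with 1.97 and 1.67 Kcna2 reads per Kcna1 read in the second pair and 3.30 and 2.93 in the first. The coding sequences are of nearly the same length, 1497 and 1485 bases without the stop codon, and dividing by them gave a mean log2 ratio of 1.24 ± 0.46 (SD, n = 4). The files do not say which transcript ends were in use.

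**Figure D1:**
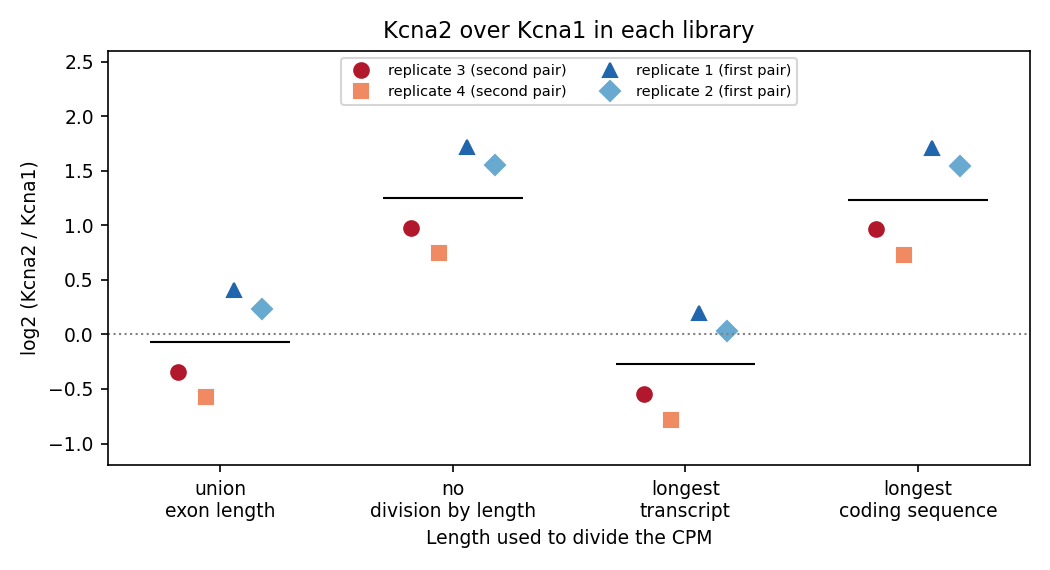
The log2 ratio of Kcna2 to Kcna1 (vertical axis) in each of 4 libraries under 4 choices of the length that divides the CPM (horizontal axis), with the mean as a line. By union exon length the mean is near 0 and the pairs lie on opposite sides of it, while without division by length all 4 libraries are above 0.

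By any of these lengths the second pair had less Kcna2 per Kcna1 than the first, since a length moves all 4 ratios alike. The log2 count ratio averaged 0.86 in the second pair and 1.64 in the first, and the pairs did not overlap. With 2 libraries against 2 the smallest two-sided exact permutation p is 0.333, which this difference reached.

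Kcna6 encodes Kv1.6, which is found in channels together with Kv1.1 and Kv1.2. The gene (ENSMUSG00000038077.7, chromosome 6, 126708329 to 126740674, minus strand) was at 60.1 and 196 CPM in replicates 3 and 4 and at 103 and 129 CPM in replicates 1 and 2 (mean 122 ± 56.9, SD, n = 4). As for Kcna1, replicate 3 was the lowest library and replicate 4 the highest. An annotated antisense gene, which has no row in the tables, overlaps 39.6% of the exon bases of Kcna6, and without a stated strand setting its reads cannot be told apart from those of Kcna6.

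Kcna1 and Kcna6 kept nearly the same ratio in every library. There were 3.09 and 3.01 reads of Kcna1 per read of Kcna6 in the second pair and 3.13 and 3.46 in the first, a mean of 3.17 ± 0.198 (SD, n = 4), while the level of Kcna1 itself ranged from 185 to 589 CPM. Per kb the log2 ratio was 1.95 ± 0.09 (SD), the smallest SD among the 36 pairs of members. Other genes matched the profile of Kcna1 as closely. Of 6436 genes that reached 10 CPM throughout, 58 lay within 0.2 of it (root mean square difference of centred log2 CPM over the 4 libraries), and Kcna6 ranked 6.

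The remaining alpha genes were much lower. Kcna4 (ENSMUSG00000042604.5, chromosome 2, 107290639 to 107298502, plus strand) encodes Kv1.4, whose channels inactivate fast. It was at 28.8 and 32.8 CPM in the second pair and at 16.9 and 13.8 CPM in the first (mean 23.1 ± 9.16, SD, n = 4), and the pairs did not overlap. Kcna5 (ENSMUSG00000045534.4, chromosome 6, 126532551 to 126535412, minus strand), known best for Kv1.5 channels of heart and vascular muscle, was at 3.77 and 6.14 CPM in replicates 3 and 4 and at 3.07 and 10.4 CPM in replicates 1 and 2. Its counts, 48 and 94 reads in the second pair and 65 and 162 in the first, were on average the lowest of the 9 genes.

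Kcna3 (ENSMUSG00000047959.4, chromosome 3, 107036169 to 107038070, plus strand) encodes Kv1.3, a channel of T cells and microglia that neurons also make. It was at 23.3 and 26.4 CPM in replicates 3 and 4 and at 3.69 and 1.41 CPM in replicates 1 and 2, so that both libraries of the second pair stood far above both of the first. The reads behind these levels were 297 and 404 in the second pair and 78 and 22 in the first. The 4 T cell markers (Cd3e, Cd3g, Cd4 and Cd8a) were at 0 counts in all 4 libraries, so each could be present at no more than 0.142 to 0.236 CPM, the worth of 3 counts. Of 5 microglia markers 1 reached 1 CPM in all 4 libraries, and their sum was 6.83 and 34.1 CPM in the second pair and 20.3 and 2.70 CPM in the first. Their part in the level of Kcna3 was not tested. The Kv1 genes Kcna7 and Kcna10, outside the 9, were at 0 counts in all 4 libraries.

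**Figure D2:**
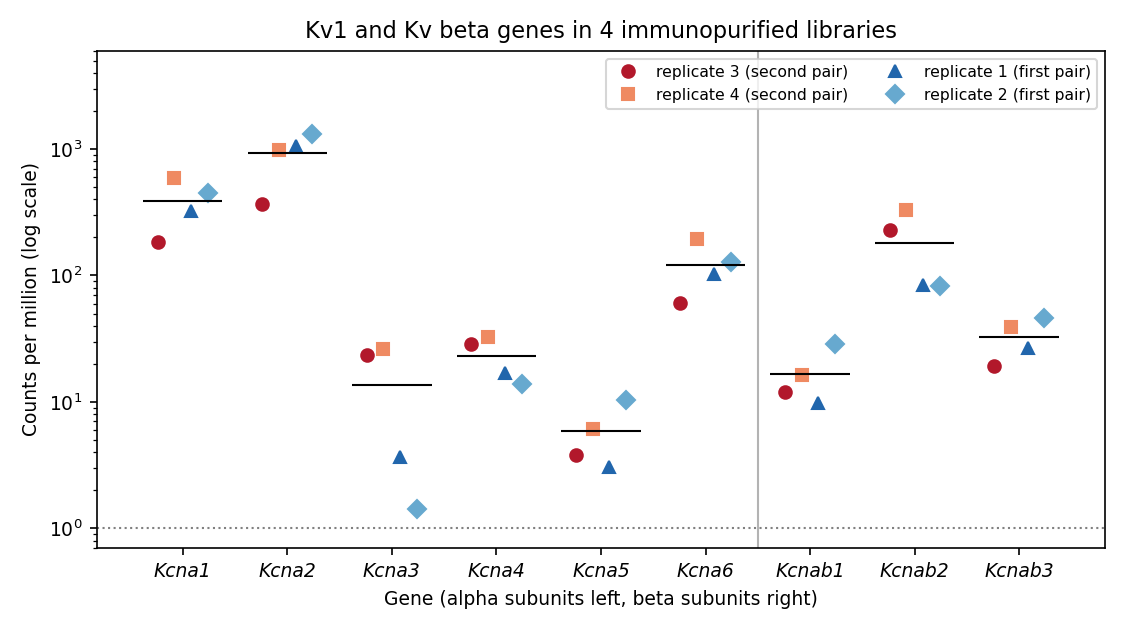
Level of each gene in CPM (vertical log axis) in each of 4 libraries, with the mean as a line and the detection level of 1 CPM as a dotted line. Kcna2 and Kcna1 have the highest means, Kcna3 and Kcnab2 are higher in both libraries of the second pair, and Kcna5 is lowest on average.

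Among the 6 alpha genes, summed per kb, Kcna1 and Kcna2 together made up 70.1% and 78.7% of the pool in the second pair and 86.8% and 87.5% in the first. Kcna1 held 40.9% ± 4.26 and Kcna2 39.8% ± 9.93 of the pool (SD, n = 4), with Kcna6 at 10.4% ± 1.48. Kcna2 was at 30.9% and 31.6% in the second pair and 49.5% and 47.3% in the first. Kcna3 took 12.4% and 5.30% of the pool in the second pair and 1.08% and 0.320% in the first. Its mean share was 4.77% ± 5.53 (SD, n = 4), beside 1.31% without division by length and 1.26% by coding length. By coding length Kcna2 held 62.3% on average and Kcna1 26.6%. Shares within a library do not depend on its total, so the ribosomal RNA row does not move them.

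Of the beta genes Kcnab2 was the most abundant on average, and its level differed most between the pairs. Kcnab2 (ENSMUSG00000028931.11, chromosome 4, 152390742 to 152477871, minus strand) encodes Kv beta 2, the main beta subunit of axonal Kv1 channels in the brain. It was at 230 and 327 CPM in replicates 3 and 4 and at 83.4 and 83.2 CPM in replicates 1 and 2. The libraries of the first pair were nearly equal, and both of the second stood well above them.

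Kcnab3 (ENSMUSG00000018470.8, chromosome 11, 69326258 to 69333042, plus strand), coding for Kv beta 3, was at 19.2 and 39.4 CPM in replicates 3 and 4 and at 26.8 and 46.2 CPM in replicates 1 and 2 (mean 32.9 ± 12.2, SD, n = 4). Kcnab1 (ENSMUSG00000027827.16, chromosome 3, 65109384 to 65378223, plus strand) encodes Kv beta 1, whose amino-terminal end can block the pore and so give slowly inactivating channels fast inactivation. It was at 11.9 and 16.5 CPM in replicates 3 and 4 and at 9.84 and 28.7 CPM in replicates 1 and 2. The pairs overlapped for both genes. An antisense gene, A330015K06Rik, covers 2.34% of the exon bases of Kcnab1 and had 0 and 106 counts in the second pair and 0 and 156 in the first. The antisense gene Kcnab3os covers 5.13% of the exon bases of Kcnab3. Gm16334, on the same strand as Kcnab2, covers 2.24% of the exon bases of Kcnab2. Neither Kcnab3os nor Gm16334 has a row of counts.

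Within the beta pool, summed per kb, Kcnab2 took 83.6% and 78.9% in the second pair and 58.8% and 43.4% in the first, and Kcnab3 took 13.5% and 18.5% in the second pair and 36.7% and 46.9% in the first. In replicate 2 Kcnab3 was thus the larger of them per kb of union exon. This order depended on the length used. Without division by length Kcnab2 was the larger in replicate 2, with 1294 reads against 719 for Kcnab3. The beta pool stood at 0.498 and 0.284 of the alpha pool in the second pair and at 0.141 and 0.148 in the first. For each of these shares the exact permutation p was 0.333, the smallest that 2 against 2 libraries allow.

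**Figure D3:**
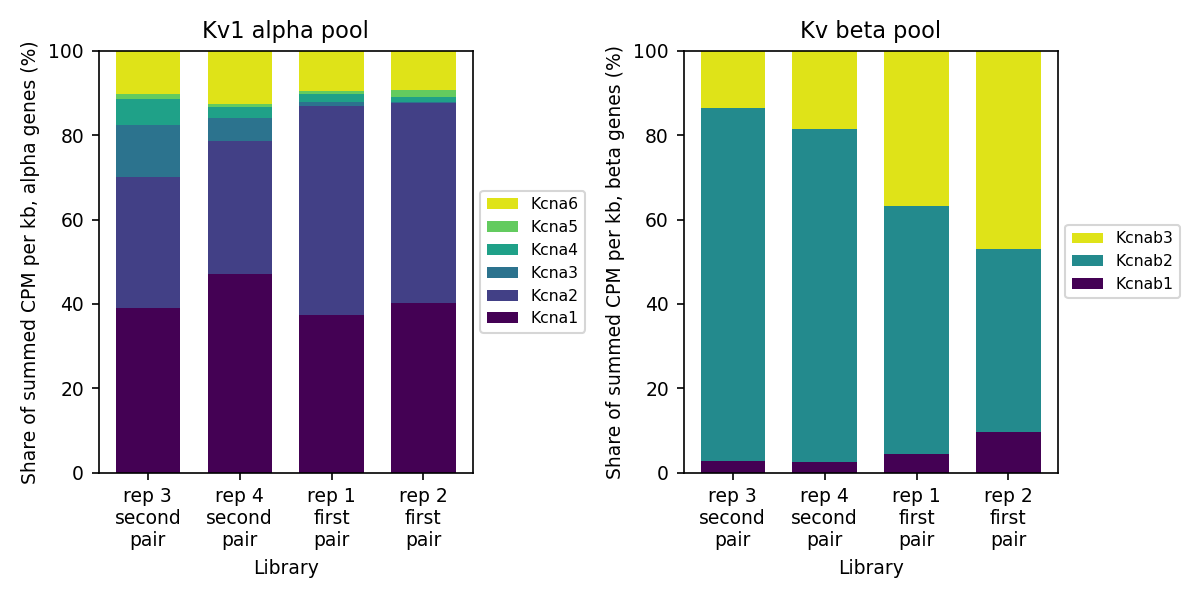
Share of each gene in the summed CPM per kb of the alpha genes (left) and the beta genes (right), in percent, 1 bar per library. Kcna1 and Kcna2 fill 70.1% to 87.5% of the alpha pool, and Kcnab2 fills 78.9% and 83.6% of the beta pool in the second pair but 43.4% and 58.8% in the first.

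The order of the 9 genes by mean CPM per kb was Kcna1, Kcna2, Kcnab2, Kcna6, Kcnab3, Kcna3, Kcna4, Kcna5 and Kcnab1. Of the 8 neighbours in this order, 7 did not differ beyond their spread, taken as a mean log2 ratio over 2 SD with the same sign in 4 of 4 libraries. The exception was Kcna6 over Kcnab3 (log2 0.76 ± 0.36, SD, n = 4). Of all 36 pairs, 23 went one way in 4 of 4 libraries and 20 of these were also over 2 SD. Kcna1 exceeded Kcna6 3.86-fold, Kcna4 14.9-fold (log2 3.90 ± 0.93) and Kcna5 31.5-fold (log2 4.98 ± 0.59). Kcna2 exceeded Kcna6 3.68-fold (log2 1.88 ± 0.52). Per kb of union exon, Kcna1 and Kcna2 each exceeded Kcnab2 in 3 of 4 libraries and were below it in replicate 3. In reads, without division by length, Kcna2 exceeded Kcnab2 in 4 of 4 libraries. The ratio of Kcnab2 to Kcna2 was 0.632 and 0.331 in the second pair and 0.0785 and 0.0636 in the first. That of Kcnab2 to Kcna1 was 1.24 and 0.554 in the second pair and 0.259 and 0.187 in the first. In replicate 3 Kcna1 thus had fewer reads than Kcnab2. Kcna5 and Kcnab1 were close in every library by union exon length (log2 0.03 ± 0.10), but without division by length Kcnab1 was higher (log2 -1.46). The two-sided exact sign-flip permutation p was 0.125 for each pair that went one way, the smallest that 4 libraries allow, and 0.196 after Benjamini-Hochberg adjustment over the 36 pairs.

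Among the pore genes of all voltage-gated potassium channel families, a list of 40, Kcna1 and Kcna2 held the first 2 ranks per kb in each of the 4 libraries. Kcna1 averaged 80.7 ± 36.1 and Kcna2 78.1 ± 33.7 CPM per kb (SD, n = 4). Kcnc1, a gene of the fast Kv3 channels, was next at 37.1 ± 10.6 CPM per kb. Kcng3, whose product modifies Kv2 channels, averaged 24.7 ± 22.6 CPM per kb. Kcna6 ranked 12 and 5 in the second pair and 9 and 9 in the first. Kv1 genes together made up 33.2% and 46.4% of the list in the second pair and 41.9% and 44.3% in the first. Without division by length Kcna2 was first on average and Kcna1 ranked 3.

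**Figure D4:**
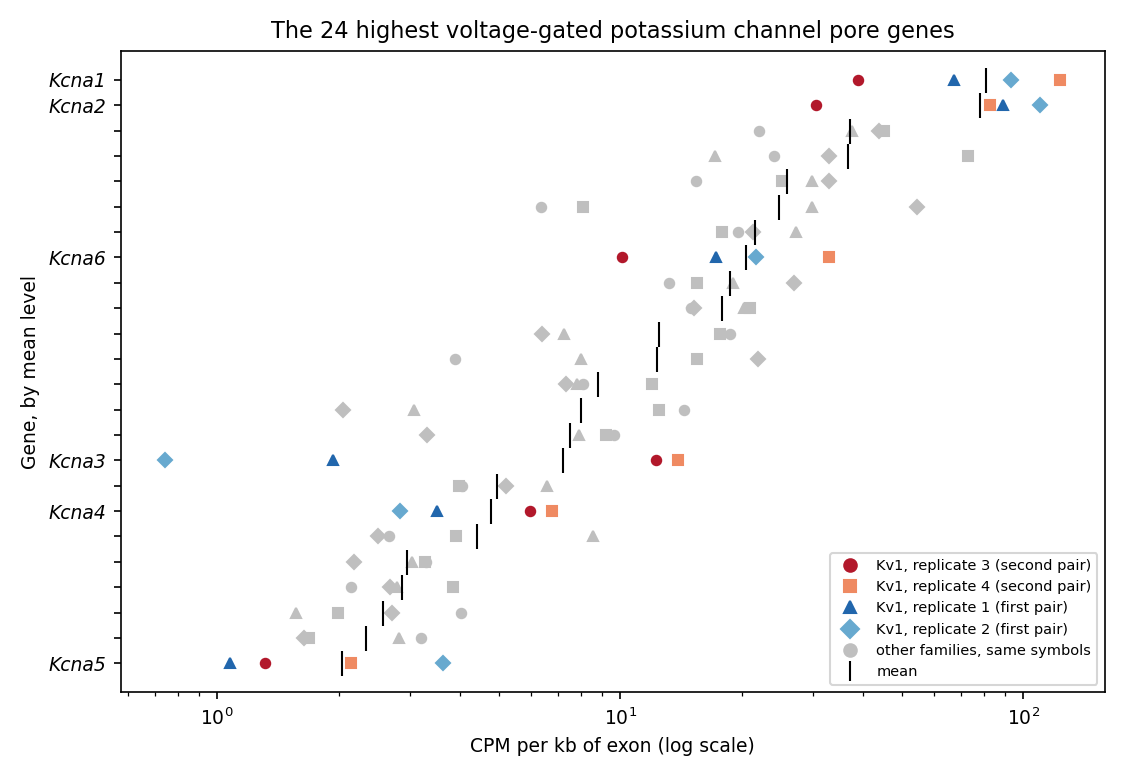
Level in CPM per kb of exon (horizontal log axis) of the 24 highest of 40 voltage-gated potassium channel pore genes, in order of their mean (black tick), with Kv1 genes named and in colour by library and other families unnamed in grey. Kcna1 and Kcna2 are at the top in every library, and Kcna3 spans from 0.744 to 13.9 CPM per kb.

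The second pair was set against the first for all genes, to measure how far replicates of the 1 group differ. Kcnab2 was the only member called, and it was higher in the second pair. Its mean was 279 CPM in the second pair and 83.3 CPM in the first, a log2 change of 1.74 (SE 0.35, edgeR quasi-likelihood test, adjusted p = 0.0353). Across 13905 genes tested 176 were called, or 1.27%, with 0.712% called higher and 0.554% called lower. With 1 of 9 called, nothing is read from the members' count as a group. Median log2 change was -0.03 over the 9 genes and -0.03 over all genes tested. With each library left out in turn, the log2 change of Kcnab2 was 1.59 to 1.87. Such a fit leaves a lone library in a pair, so its calls are not taken as support.

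Kcna3 had a larger estimate with a larger error. Its mean was 24.9 CPM in the second pair and 2.55 CPM in the first, a log2 change of 3.30 (SE 0.95), and edgeR did not call it (adjusted p = 0.103, unadjusted p = 0.00452). DESeq2 called Kcna3 (adjusted p = 0.00315), but it called 9.23% of all genes tested, beside 1.27% in the main fit. Without a filter on low counts edgeR called Kcna3 (adjusted p = 0.0443) among 875 calls in 18346 genes. Limited to genes that reached 1 CPM throughout, edgeR called Kcna3 (adjusted p = 0.0451) among 528 calls in 10643 genes. With a library left out, the log2 change was 2.79 to 4.11. Over the alternatives run, adjusted p ranged from 0.00315 to 0.264.

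Kcna2 averaged 675 CPM in the second pair and 1185 CPM in the first (log2 change -0.85, SE 0.38, edgeR adjusted p = 0.284). Without replicate 4 the log2 change of Kcna2 was -1.58, and without replicate 3 it was -0.37. Kcna4 had a log2 change of 1.02 (SE 0.67, edgeR adjusted p = 0.49). For Kcna1, Kcna6, Kcna5, Kcnab1 and Kcnab3 the log2 change lay between -0.46 and 0.10, and none was called. Their SEs ran from 0.43 for Kcna1 to 1.26 for Kcna5, which was thus the least precisely measured. The CPM of the pairs did not overlap for 4 of the 9 genes, 3 higher (Kcna3, Kcna4 and Kcnab2) and 1 lower (Kcna2) in the second pair. Among the 10632 shared rows that reached 1 CPM throughout, 49.2% did not overlap, so 4 of 9 is near the background. With Rn45s left out of the totals, the pairs overlapped for Kcna2.

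**Figure D5:**
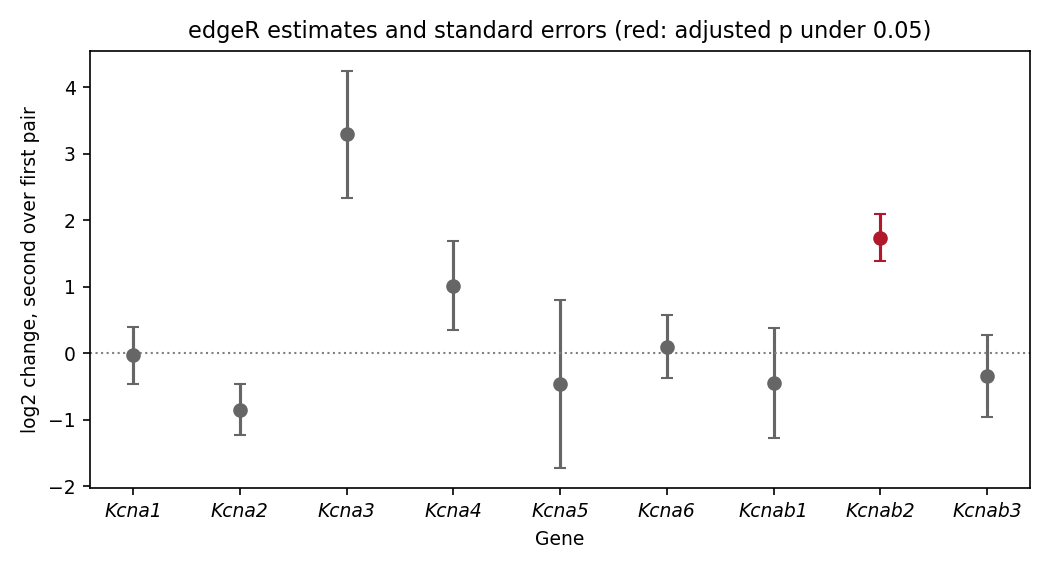
The log2 change of each gene in the second pair over the first (vertical axis), as estimated by edgeR from 2 libraries on each side, with bars of 1 standard error. Kcnab2, in red, has an adjusted p under 0.05, and Kcna3 has the highest estimate, with an SE of 0.95.

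Genes used as markers of other cells in and around the rostral pons were also compared, and some differed between the pairs. Which cells their RNA came from was not tested. The 7 markers of cerebellar granule cells summed to 154 and 253 CPM in the second pair and 536 and 1212 CPM in the first, and 2 of 7 (Cbln3 and Neurod1) were called lower, beside 0.554% of all genes tested. The median log2 change of the 7 was -2.03, and Slc17a7 had a change of the other sign (0.72, not called). The 6 Purkinje cell markers summed to 736 and 708 CPM in the second pair and 1487 and 2521 CPM in the first, with 2 of 6 (Car8 and Itpr1) called lower. Itpr1 alone made up most of the difference in the sum, with 357 and 430 CPM in the second pair and 949 and 1706 CPM in the first. The median log2 change of the 6 was -1.34, and Pcp2 (1.85) and Calb1 (0.57), neither called, had the other sign. No marker of either list was at 0 in all libraries. The 6 markers of mesencephalic trigeminal sensory neurons, cells of this region, summed to 61.7 and 174 CPM in the second pair and 99.4 and 82.9 CPM in the first. Ntrk3 made up most of each sum, with 54.8 and 146 CPM in the second pair and 84.0 and 62.2 CPM in the first. Isl1 and Runx3 stayed below 1 CPM in every library. Of these 6 markers, 2 reached 1 CPM in all 4 libraries. Their part in the differences of Kcnab2, Kcna3 and Kcna2 was not tested.

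Genes whose products anchor, cluster or modify Kv1 channels were taken from a list of 19, of which 18 had a shared row and 16 reached 1 CPM in all 4 libraries. Per kb the highest were Sptan1 at 73.2 ± 32.9 and Sptbn1 at 67.8 ± 31.7 CPM per kb (SD, n = 4), both spectrins of the membrane skeleton. Dlg2, a scaffold of the PSD-95 family that binds the carboxy-terminal end of Kv1 alpha subunits, was at 50.1 ± 19.2 CPM per kb, and Adam22, a receptor for LGI proteins, at 21.8 ± 2.86. The lowest were Lgi4 at 0.626 ± 0.821 and Kcnrg, named for its regulation of potassium channels, at 1.03 ± 1.02 CPM per kb.

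In this list 2 of 18 genes were called, both higher in the second pair, beside 0.712% of all genes tested. Lgi2, a secreted ligand of the LGI family, was at 71.6 and 112 CPM in the second pair and at 6.05 and 15.1 CPM in the first (log2 change 3.10, SE 0.60, edgeR adjusted p = 0.0315). Adam11, which places Kv1 channels at terminals of cerebellar basket cells, was at 43.9 and 89.8 CPM in the second pair and at 5.06 and 7.97 CPM in the first (log2 change 3.34, SE 0.65, edgeR adjusted p = 0.0315). Lgi1, a relative of Lgi2, was not called, with 80.7 and 87.0 CPM in the second pair and 357 and 134 CPM in the first (edgeR adjusted p = 0.106). DESeq2 did call Lgi1 lower (adjusted p = 0.018). Cntnap2 was at 79.5 and 200 CPM in the second pair and 110 and 151 CPM in the first, and Cntn2 at 44.5 and 108 CPM in the second pair and 85.7 and 62.7 CPM in the first, with overlapping pairs for both genes. Median log2 change of the 18 genes was 0.21.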

How the data were processed

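Ribosome-bound RNA of 4 immunopurified libraries was analysed from the deposited raw counts per gene symbol, without normalization. STAR 2.0.0e, HTSeq and the build mm10 are named, with no options, per the submitters' processing notes. The annotation and strand setting are not given in the sources used here. The HTSeq summary rows and the row unknown were kept out of totals and tests. Reads outside any feature made up 24.0% to 30.1% of a library and reads with more than 1 alignment 28.6% to 37.2%. Floors (3 counts) cover counting error only, because the reads carry no molecular identifiers.

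CPM used all gene rows of a library. Union exon, longest transcript and coding lengths came from GENCODE M21 (GRCm38, the assembly of mm10). For log2 ratios 0.5 was added to CPM per kb. A quasi-likelihood fit in edgeR 4.0.16 set the second library pair against the first over all shared rows (filterByExpr, TMM, Benjamini-Hochberg adjusted p under 0.05), with SE taken as the log2 change over the square root of F. The test was checked on simulated counts. Alternatives were DESeq2 1.42.0, its size factors, other low-count filters, a fit without the 20 highest genes, other lengths, pseudocounts and detection levels, and each replicate left out.

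The members and lists were chosen with earlier results of these data known. Named beside the 9 members were the 4 highest and 2 lowest of the Kv1 complex list, its calls, the 6 highest of the Kv pore list (some are not reported here), and for each member the 2 genes of most similar profile. Cntnap2, Cntn2 and Lgi1 were added after their values were seen. Protein sequences were not used here.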

Additional observations from a re-analysis of the deposited data

How the results depend on the processing

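No pair of members that was over 2 SD changed sign under any length, pseudocount or left-out library tried. The number of such pairs, 20 of 36, was 24 without division by length, 21 by longest transcript, 20 and 21 with pseudocounts of 0.1 and 1, and 18 to 24 with a library left out; by coding length, chosen after seeing the data, it was 24. The mean log2 ratio moved by more than its SD in 16, 6 and 20 pairs under no length, longest transcript and coding length.

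Without division by length the mean share of the alpha pool was 26.2% for Kcna1, 61.8% for Kcna2, 0.412% for Kcna5 and 8.31% for Kcna6, and Kcnab1 held 8.81% of the beta pool. By coding length these were 26.6%, 62.3%, 0.345%, 7.91% and 8.55%, and Kv1 genes held 49.2% of the Kv pore list. Leaving out a library gave 38.9% to 42.1% for Kcna1 and 36.6% to 42.8% for Kcna2. Means in CPM moved by less than 1 SD without Rn45s or with TMM totals. At 5 CPM, 7 of 9 genes were detected in all libraries.

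Members called between the pairs numbered 1, but 2 by DESeq2, without a filter and with the 1 CPM filter, Kcna3 being the addition, and 1 to 2 with a library left out. All genes called numbered 176, but 1283 by DESeq2, 875 without a filter, 528 with the 1 CPM filter and 389 to 699 with a library left out, where the lone library of a pair is assumed to vary like the others. The cause of these shifts was not tested. No paired analysis was possible because the libraries form 1 group. Kcna5 (48 to 162 reads) and Kcna3 (22 to 404) are limited by depth.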

Other observations

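The genes closest in profile to each member (centred log2 CPM over the 4 libraries, among genes at 10 CPM or more in all) describe these libraries only, since 4 values leave many genes alike. Kcna1 and Kcna6 had the same closest genes, Mbtps2, coding for the site-2 protease, and Edem1, which acts in degradation of misfolded proteins of the endoplasmic reticulum. The root mean square difference was 0.03 and 0.07 on the log2 scale for Kcna1 and 0.06 and 0.07 for Kcna6. Kcna2 lay closest to Gxylt1 and Epas1, Kcna4 to Shd and Arhgef17, Kcnab3 to Prdm4 and Ank3, the gene of ankyrin-G at axon initial segments. Kcna5 and Kcnab1 shared Asap2 among their closest genes, beside Copb1 for Kcna5 and Mios for Kcnab1. Kcnab2 lay closest to Rpl37a, a ribosomal protein gene, and Agfg1, each at 0.10. No gene came within 0.2 of Kcna3, whose closest genes were Zfp385a at 0.26 and Eri3 at 0.29.

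Kcng3, a pore gene outside the Kv1 family, was called lower in the second pair by edgeR (log2 change -2.55, SE 0.47, adjusted p = 0.0278). It was 1 call among 33 tested genes of the Kv pore list, beside 1.27% of all genes tested. DESeq2 called Kcng3 and further genes of this list, Kcna3 among them.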
